A study of Homo sapiens with 16 samples.

Results

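Uninduced U937 cells were compared at 24 h and at 0 h of an induction time course, to describe what changed in the control cells themselves over the first day. U937 is a human leukaemia line of the monocytic lineage, and these cells carry an AML1-ETO construct behind a tetracycline-controlled promoter, which the labels give as the same in every group. AML1-ETO is the fusion of RUNX1 with RUNX1T1 that arises in t(8;21) leukaemia. The comparison was defined by the sample titles: the 2 control arrays of 24 h against the 2 control arrays of 0 h, which are 4 of the 16 arrays of the series. The 12559 probe sets that are not array controls entered, of 12626 in all. The other uninduced groups were taken at 48 and 72 h and the induced groups at 12, 24, 48 and 72 h, each with 2 arrays. Uninduced cells of 12 h, of which the labels also speak, were not analysed here. All cells grew in RPMI 1640 with 10% fetal calf serum and 1% penicillin-streptomycin. The labels do not say whether the drug that governs the promoter was in the control medium, whether the medium was renewed at 0 h, how dense the cultures were, or whether the clone is single. Nor do they state that the arrays of a group stem from independent cultures, and p-values here thus reflect only how far these arrays scatter, a scatter that may be technical.

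Cells kept in a flask use up nutrients and growth factors and then receive them again when the medium is changed. Several transcripts are known to follow this state. When growth factor and insulin signals are low, FOXO transcription factors enter the nucleus and raise genes of growth arrest and catabolism. TXNIP, which binds thioredoxin and limits glucose uptake, follows the supply of glucose, and DDIT3 (CHOP) is induced when amino acids are short or proteins misfold in the endoplasmic reticulum. When growth is permitted, MYC and its targets raise polyamine synthesis and the building of ribosomes, while proteasomes degrade proteins marked with ubiquitin.

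The values are array intensities, 1 per probe set and array, scaled so that all arrays have a mean of 1370.9. The median intensity was 245.3 and 336 on the arrays of 0 h and 238.2 and 337.5 on those of 24 h. Replicate 1 thus had the lower median of scaled values at both times. The recorded scale factors were 1.06 and 1.14 at 0 h and 1.20 and 0.93 at 24 h. Between 24.6% and 33.9% of the values of these 4 arrays lay below 0. Replicates correlated across probe sets at r = 0.912 at 0 h and 0.927 at 24 h. The sequence of RUNX1T1 supplies the ETO moiety of the fusion protein, and its 1 tested probe set read -398.6 to 91.4 on all 8 control arrays. It was as low on the induced arrays of 12 h (-116.5 and 86.1), so a low value cannot show that cells were uninduced. An untested probe set of RUNX1T1 read 351.5 and 131.8 on the control arrays of 72 h, the second value under the floor of 135.6 used below. The same probe set read -158.2 and 164.5 on the control arrays of 48 h. On induced arrays it read 206.7 and 206.8 at 48 h and 155.3 and -52 at 72 h. On the array, 9 of 16 markers of monocytic cells exceeded the median of all values (292.7) on all 4 arrays, among them LYZ, ELANE, AZU1, CTSG, SPI1 and CEBPA, while CD14, CD68, CSF1R, ITGAM and MPO did not. For markers of other cells these counts were 1 of 5 for T cells, 1 of 3 for B cells, 1 of 2 for erythroid cells, 1 of 3 for megakaryocytes and 3 of 6 for fibroblasts and epithelia. The summed B cell markers read -216.4 and -332.1 at 0 h and 1109 and 926.7 at 24 h, and the summed monocytic markers 58619 and 61980 against 59784 and 54183. Within the B cell sum, CD79B was under the floor of 135.6 used below on all 4 arrays (-1126 and -745.4, then -315.3 and 17.1) and CD79A overlapped between the times. The summed fibroblast and epithelial markers read 5361 and 5277 at 0 h and 6151 and 6033 at 24 h, with COL1A1 at 1369 and 497 and then 2013 and 2492 (adjusted p = 0.338), while COL1A2, COL3A1 and KRT18 were under the floor. The part of these differences in any result below was not tested.

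Between 0 and 24 h without induction, 22 genes with a single symbol were lower and 12 higher at the adjusted p threshold given below. The glucocorticoid- and FOXO-responsive TSC22D3 fell at least 12.0-fold, the stress factor DDIT3 at least 5.45-fold and the mitophagy receptor BNIP3L 3.62-fold. Both called probe sets of SAT1, which starts the breakdown of polyamines, fell. The lysosomal carboxypeptidase CTSA rose 3.25-fold, 3 genes of the regulatory particle of the proteasome rose 1.74-fold to 1.97-fold, and spermidine synthase (SRM) rose 1.61-fold. In these bulk RNA samples a change in the make-up of the culture and a change in RNA per cell cannot be told apart. Of 7824 probe sets with enough signal, 39 differed at an adjusted p under 0.05, which is 0.498%, with 13 higher (0.166%) and 26 lower (0.332%) at 24 h. On each of the 39 both arrays of a group lay above both of the other, as they did on 37.9% of all tested probe sets. At an unadjusted p under 0.05 there were 436 higher and 609 lower. The log2 differences of called probe sets were between 0.69 and 3.58 in size, against quartiles of -0.38 and 0.26 and a median of -0.05 over all tested probe sets. Just inside the threshold were TP53BP1 (adjusted p = 0.0489) and ARPC4 (0.0475), and just outside it DNAJA1 (0.0507) and P2RX1 (0.0509).

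**Figure D1:**
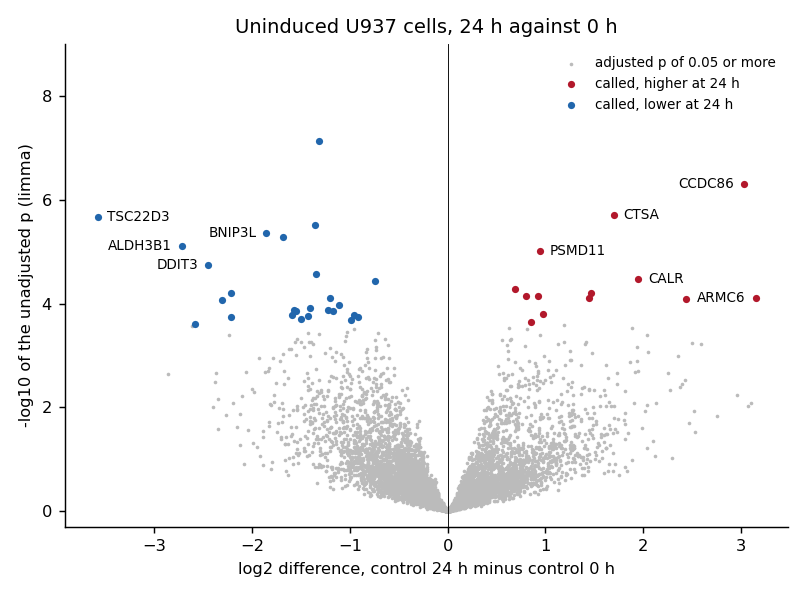
Log2 difference of 24 h minus 0 h in uninduced cells (x axis) against -log10 of the unadjusted p of limma (y axis) for the 7824 tested probe sets. The 13 called probe sets with higher values are red and the 26 with lower values blue, and TSC22D3 lies farthest to the left at -3.58.

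Intensities under a floor of 135.6, the 40th percentile of all values, were raised to that floor ahead of the log2 transform, so a fold change is given as "at least" where the lower side lay under the floor. Such bounds move with the floor: at the 30th and 50th percentile the log2 difference was -4.60 and -2.47 for TSC22D3, -4.43 and -1.34 for DDIT3, -4.13 and -1.11 for EXT1, 5.01 and 1.92 for CCDC86, and 5.13 and 2.04 for ARMC6, whose call ended at the 50th. The calls drew on the spread in all 16 arrays of the series. With the 4 arrays alone, which leave 2 residual degrees of freedom, 0 probe sets were called by limma and 712 had an unadjusted p under 0.05. With the 8 control arrays 1 was called, a probe set unnamed here. Leaving out replicate 1 or 2 of 0 h gave 21 or 31 calls, of which 11 and 11 were among the 39. Leaving out replicate 1 or 2 of 24 h gave 10 or 85 calls, with 8 and 28 of the 39 among them, and leaving out either array of 72 h gave 20. The fitted direction of the called probe sets did not change in the 17 alternatives run for single probe sets, of which the stricter filter left DDIT3 and EXT1 untested. Because the groups did not overlap on any of the 39, only quantile normalization and median centring could have turned it. The balance of higher and lower calls did turn: 33.3% of the 39 were higher, against 66.7% without replicate 1 and 71% without replicate 2 of 0 h, 52% with no filter on low values and 20% without replicate 2 of 24 h. It was 48.9% with quantile-normalized and 48.4% with median-centred values.

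The 34 called genes with a single symbol comprise 12 that rose and 22 that fell, and promoters for all 12 and for 18 of the 22 were found in the RefSeq table (GRCh38.p14). In the 250 bases before the start, the E-box CACGTG, which is its own reverse complement, occurred in 4 of the 12 promoters of genes that rose (33.3%), against 6.5% of all 27305 promoters and 8.9% of those of tested genes. Of the 18 promoters of genes that fell 1 held it, that of WSB1 (5.6%). CCAAT, read on both strands and so also as ATTGG, occurred in 5 of 12 (41.7%) and 9 of 18 (50%), against 33.0% of all and 35.6% of tested genes. TGACNNNGC, the antioxidant response motif read on both strands, was in 5 of 12 (41.7%) and 3 of 18 (16.7%), against 11% and 13%. TGATGNAA, a core of the amino acid response element, was in 0 of 12 and 0 of 18, against 3.2% and 1.8%. TGACGTCA, the cyclic AMP response element, was in 1 of 12 (8.3%) and 2 of 18 (11.1%), against 1.8% and 3.0%. The other motifs searched, for E2F, for sterol response and for the cell cycle homology region, were in 0 of 12 promoters each, and in 0, 0 and 2 of 18. These matches describe letters and were not tested. Bases farther upstream were not searched, so a motif absent here may still lie outside the window, also for DDIT3. The 4 promoters with an E-box among genes that rose are shown with those of TXNIP and DDIT3 among genes that fell, 5′ to 3′ along the gene, with the E-box and the CCAAT box on either strand in capitals. They span chr1:11060019-11060268 on the minus strand for SRM, chr11:60841863-60842112 on the plus strand for CCDC86, chr1:43969760-43970009 on the plus strand for DPH2, chr20:45891085-45891334 on the plus strand for CTSA, chr1:145996580-145996829 on the minus strand for TXNIP and chr12:57520515-57520764 on the minus strand for DDIT3.
SRM: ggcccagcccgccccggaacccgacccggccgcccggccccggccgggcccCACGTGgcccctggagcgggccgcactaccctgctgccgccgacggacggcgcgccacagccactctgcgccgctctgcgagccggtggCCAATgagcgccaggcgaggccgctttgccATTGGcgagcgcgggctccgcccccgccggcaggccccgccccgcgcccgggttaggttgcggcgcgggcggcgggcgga
CCDC86: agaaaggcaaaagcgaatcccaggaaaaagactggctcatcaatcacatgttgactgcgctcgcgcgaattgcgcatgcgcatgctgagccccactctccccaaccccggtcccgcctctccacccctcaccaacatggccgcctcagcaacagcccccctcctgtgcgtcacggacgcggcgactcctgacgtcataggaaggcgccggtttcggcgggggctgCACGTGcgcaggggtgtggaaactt
DPH2: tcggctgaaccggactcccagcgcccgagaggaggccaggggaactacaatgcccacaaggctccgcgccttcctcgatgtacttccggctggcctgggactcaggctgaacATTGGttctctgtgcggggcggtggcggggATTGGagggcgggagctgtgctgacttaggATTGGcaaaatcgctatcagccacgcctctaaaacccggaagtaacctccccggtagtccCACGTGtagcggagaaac
CTSA: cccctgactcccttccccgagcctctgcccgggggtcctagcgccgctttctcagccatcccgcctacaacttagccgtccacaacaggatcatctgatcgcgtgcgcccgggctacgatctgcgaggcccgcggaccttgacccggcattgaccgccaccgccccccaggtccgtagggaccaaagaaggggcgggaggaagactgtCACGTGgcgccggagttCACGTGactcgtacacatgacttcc
TXNIP: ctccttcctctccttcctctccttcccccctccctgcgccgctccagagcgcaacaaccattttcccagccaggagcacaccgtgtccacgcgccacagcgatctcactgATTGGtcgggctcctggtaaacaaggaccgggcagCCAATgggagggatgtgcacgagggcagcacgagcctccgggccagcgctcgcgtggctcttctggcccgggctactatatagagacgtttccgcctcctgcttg
DDIT3: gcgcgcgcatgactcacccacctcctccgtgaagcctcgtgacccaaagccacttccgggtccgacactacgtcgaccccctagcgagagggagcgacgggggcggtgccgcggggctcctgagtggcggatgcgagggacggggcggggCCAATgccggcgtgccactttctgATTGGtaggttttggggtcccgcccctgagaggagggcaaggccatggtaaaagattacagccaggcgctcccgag
CTSA holds 2 E-boxes, which begin 42 and 25 bases before the start, while those of CCDC86, DPH2 and SRM begin 25, 18 and 199 bases before it. DPH2 holds 3 CCAAT boxes, and SRM, TXNIP and DDIT3 hold 2 each. The printed promoters of genes that rose were picked for their E-box, while that of WSB1, which also holds it, is not shown. Other motifs are not marked, among them the antioxidant response motif in CCDC86 and CTSA.

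TSC22D3 (GILZ), a leucine zipper protein raised by glucocorticoids and FOXO factors, had the largest fitted fall. It read 1526 and 1725 at 0 h and 91.7 and 48.5 at 24 h. Both arrays of 24 h lay under the floor, so the fall was at least 12.0-fold (log2 -3.58, SE 0.45, adjusted p = 0.00418). A second probe set of TSC22D3 read 4.1 and 1118 at 0 h and 354 and 645 at 24 h, with overlapping groups (log2 0.30, adjusted p = 0.940). TXNIP read 7786 and 7517 at 0 h and 3185 and 3486 at 24 h. Its replicates lay close together and the groups far apart, a fall of 2.30-fold (log2 -1.20, SE 0.21, adjusted p = 0.0291). DDIT3, a transcription factor of the integrated stress response, read 967 and 565 at 0 h and -637.6 and -423.1 at 24 h. Both later arrays were under the floor, which makes the fall at least 5.45-fold (adjusted p = 0.0143). The second DDIT3 probe set was under the floor on all 4 arrays and gives no difference. BNIP3L (NIX), an outer mitochondrial membrane protein that marks mitochondria for autophagy, read 4050 and 3425 at 0 h and 968 and 1091 at 24 h. The groups did not overlap, as on all 39 called probe sets, and the fall was 3.62-fold (log2 -1.86, SE 0.25, adjusted p = 0.00564).

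Among called enzymes, SAT1, GLUL and ALDH3B1 fell. SAT1, the acetyltransferase that marks spermidine and spermine for breakdown or export, read 5496 and 5422 at 0 h and 2447 and 1851 at 24 h on its brighter probe set. This was a fall of 2.57-fold (log2 -1.36, SE 0.18, adjusted p = 0.00487), and the other called probe set fell 3.22-fold (adjusted p = 0.00582). Glutamine synthetase (GLUL) read 8509 and 8133 at 0 h and 2994 and 4574 at 24 h. Its later arrays differed more from each other than the earlier ones, but both lay below them (2.25-fold, adjusted p = 0.0382). ALDH3B1, an aldehyde dehydrogenase, fell 6.59-fold from 1558 and 1811 to 278.6 and 233.1 (log2 -2.72, SE 0.38, adjusted p = 0.00760). AHCYL1, which resembles adenosylhomocysteine hydrolase and regulates the IP3 receptor, fell 1.99-fold on 1 probe set, and its 3 other probe sets had log2 differences of -0.73, -0.75 and -0.82 that did not pass.

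ALOX5AP, the protein that presents arachidonic acid to 5-lipoxygenase, read 3855 and 4251 at 0 h and 1620 and 1572 at 24 h (2.54-fold lower, adjusted p = 0.0196). HLA-E, the MHC class I molecule read by NKG2 receptors, went from 2391 and 2253 to 711 and 852 (2.98-fold lower, adjusted p = 0.0382). GRN, the secreted growth factor progranulin, fell 2.92-fold and PLEK, the protein kinase C substrate pleckstrin, 2.34-fold. NPC2, which hands cholesterol out of the lysosome, read 6247 and 7049 at 0 h and 3980 and 2915 at 24 h (1.95-fold lower, adjusted p = 0.0404).

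The other called genes that fell have varied roles. TUBA1A, an alpha tubulin, fell 2.83-fold, and CAMK2G, a calcium- and calmodulin-dependent kinase, 2.69-fold. WSB1, a substrate receptor of a ubiquitin ligase, fell 2.65-fold and INPPL1 (SHIP2), a phosphatase of inositol lipids, 2.15-fold. GOLGA2, the Golgi matrix protein GM130, fell 4.95-fold from 1335 and 998 to 181.1 and 300. POLR3D, a subunit of RNA polymerase III, fell 4.66-fold from 2682 and 2622 to 671 and 483.2. EXT1, a glycosyltransferase of heparan sulphate, was 634 and 627 at 0 h and under the floor at 24 h (at least 4.65-fold lower). TP53BP1, which acts at DNA double-strand breaks, fell 5.99-fold on 1 probe set (adjusted p = 0.0489), while its other probe set differed by log2 -0.31 (adjusted p = 0.656). The mitochondrial protein gene NIPSNAP1 fell 1.88-fold. GLUL, AHCYL1, PLEK, INPPL1 and NIPSNAP1 lie outside the rule for named genes and were named after their values were seen.

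Among genes that rose, 3 encode parts of the 19S regulatory particle of the proteasome, which recognises and unfolds ubiquitinated proteins. PSMD11 read 2862 and 3364 at 0 h and 5762 and 6199 at 24 h. The groups lay well apart, a rise of 1.93-fold (log2 0.95, SE 0.14, adjusted p = 0.00838). PSMD1, a large scaffold subunit, read 4894 and 4111 at 0 h and 7866 and 7749 at 24 h (1.74-fold, adjusted p = 0.0291). ADRM1, the ubiquitin receptor of the particle, read 2669 and 2565 at 0 h and 4930 and 5388 at 24 h (1.97-fold, adjusted p = 0.0404). In each of the 3 the lowest array of 24 h was above the highest of 0 h. The groups were apart in this way on all 39 called probe sets and, in either direction, on 37.9% of all tested ones.

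The other 9 genes that rose have varied roles. SRM, which makes spermidine from putrescine, read 11302 and 11551 at 0 h and 19787 and 17177 at 24 h. That was a rise of 1.61-fold (log2 0.69, SE 0.12, adjusted p = 0.0291), the smallest of all called differences, while its dim second probe set differed by log2 0.23 (adjusted p = 0.826). DPH2, an enzyme of the diphthamide modification of elongation factor 2, rose 2.77-fold from 955 and 974 to 2756 and 2598. CCDC86, a coiled-coil protein, read -139.7 and 21.8 at 0 h and 1171 and 1054 at 24 h. Both arrays of 0 h were under the floor, so the rise was at least 8.19-fold (adjusted p = 0.00197). ARMC6, which has armadillo repeats, read -586.7 and -348.8 at 0 h and 1823 and 795 at 24 h, at least 8.88-fold higher (adjusted p = 0.0291). CTSA, a lysosomal carboxypeptidase that also protects beta-galactosidase and neuraminidase, read 707 and 790 at 0 h and 2421 and 2434 at 24 h. Its replicates at 24 h were nearly equal (log2 1.70, SE 0.21, adjusted p = 0.00418). CALR, the calcium-binding chaperone of the endoplasmic reticulum, rose 3.87-fold on 1 probe set, from 1925 and 1633 to 9157 and 5133 (adjusted p = 0.0223). Its brighter probe set differed by log2 0.69 and did not pass (adjusted p = 0.207). ZMPSTE24, the protease that matures lamin A, rose 2.72-fold. The called probe sets of TUBB4A (1.90-fold) and ARPC4 (1.81-fold), a beta tubulin and a subunit of the actin-nucleating Arp2/3 complex, carry the suffix of probe sets shared within a family, so these genes are uncertain, and the other tested ARPC4 probe set differed by log2 0.07 (adjusted p = 0.898). Those of PSMD11, SRM, SAT1, AHCYL1, INPPL1 and TP53BP1 carry other suffixes, and whether they also detect further transcripts was not examined.

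**Figure D2:**
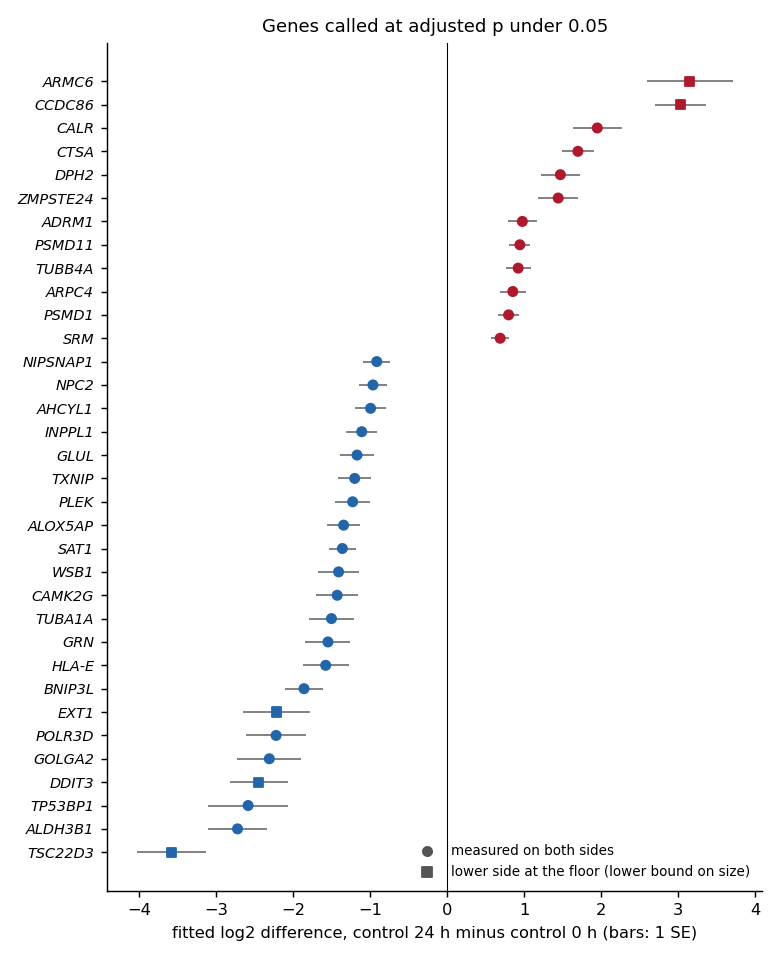
Fitted log2 difference of 24 h minus 0 h with 1 SE (x axis) for the 34 called genes with a single symbol, 1 probe set per gene. Squares mark genes whose lower side lay under the floor, among them TSC22D3 at -3.58 and ARMC6 at 3.15, and circles genes measured on both sides.

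Across the called genes, 13 further probe sets of the same genes were tested. Of these, 11 had the same sign as the called one, 7 of them at an unadjusted p under 0.05. One had the other sign (TSC22D3) and 1 showed no difference (DDIT3). A further 4 called probe sets had no single symbol. The smallest adjusted p belonged to 1 of these, which read 9445 and 9790 at 0 h and 3889 and 3841 at 24 h (adjusted p = 0.000567).

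Gene lists were read with 1 probe set per gene, the brightest. They were written with earlier results of these data known, so their counts and medians describe the lists and are not independent evidence. Over all 5606 tested genes, 10 were called higher (0.178%) and 19 lower (0.339%), 5.76% were higher and 7.96% lower at an unadjusted p under 0.05, and the median log2 difference was -0.06. In the list of nutrient stress, FOXO targets and growth arrest, 2 of 21 tested genes were called lower and 0 higher. By sign alone 17 were lower and 3 higher. At an unadjusted p under 0.05, 8 were lower and 0 higher, and the list median was -0.62. The 2 called were TSC22D3 and TXNIP. FOXO1, a transcription factor that insulin signalling keeps out of the nucleus, read 1383 and 1274 at 0 h and 361 and 697 at 24 h without passing (log2 -1.40, adjusted p = 0.0856). CITED2, a CBP-binding regulator, read 3628 and 3206 against 1440 and 2314 (log2 -0.90, adjusted p = 0.125). With median-centred values the list median was -0.49, and with quantile-normalized values -0.53.

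Among 32 proteasome subunits, 2 were called higher (PSMD11 and PSMD1) and 0 lower. By sign alone 25 were higher and 7 lower. At an unadjusted p under 0.05, 8 were higher and 0 lower, with a median of 0.17. The ATPase gene PSMC4 read 925 and 647 at 0 h and 2676 and 1584 at 24 h (log2 1.41, adjusted p = 0.0667), and PSMD2, the other large scaffold subunit, 5839 and 5627 against 9693 and 10201 (log2 0.79, adjusted p = 0.0701). In the list for MYC targets and ribosome biogenesis, with 26 tested genes, SRM alone was called, 6 were higher and 1 lower at an unadjusted p under 0.05, and the median was 0.35. UBTF, which recruits RNA polymerase I to the rRNA genes, read 1222 and 1101 at 0 h and 2460 and 3105 at 24 h (log2 1.25, adjusted p = 0.0904). ODC1, the first enzyme of polyamine synthesis, differed by log2 0.46 (adjusted p = 0.180). The list of 9 polyamine genes thus held 1 called gene in each direction, SRM for synthesis and SAT1 for breakdown, with a median of -0.01.

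Of 34 genes of the amino acid response, the tRNA synthetases and serine synthesis, only DDIT3 was called, and it fell. At an unadjusted p under 0.05, 5 were higher and 5 lower, and the median was -0.19. The valine tRNA synthetase VARS1 read 7999 and 7643 at 0 h and 11649 and 12588 at 24 h (log2 0.63, adjusted p = 0.0537), while the alanine synthetase AARS1 read 12829 and 11569 against 7196 and 8925 (log2 -0.60, adjusted p = 0.125). Synthetases thus had differences of both signs. Of 21 heat shock genes and cytosolic chaperones, 0 passed by limma and 5 were higher and 0 lower at an unadjusted p under 0.05. DNAJA1, a co-chaperone of HSP70, read 3628 and 1878 at 0 h and 6591 and 5408 at 24 h (log2 1.19, adjusted p = 0.0507).

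Of 27 monocyte and macrophage markers 1 was called lower, ALOX5AP, and the median was -0.15. By sign alone 8 were higher and 18 lower. Lysozyme (LYZ), the bacteriolytic enzyme of monocytes, read 2302 and 2092 at 0 h and 12394 and 5298 at 24 h without passing (log2 1.89, SE 0.39, adjusted p = 0.0537). Its arrays of 24 h differed by more than the groups' nearest values. The list of 14 primary granule and promyelocyte genes had 0 calls, with 2 higher and 1 lower at an unadjusted p under 0.05. HLA-E was the only call among 8 genes of MHC class I and peptide transport. In the lysosome and autophagy list of 37 genes, CTSA was called higher and NPC2 lower. At an unadjusted p under 0.05, 3 were higher and 3 lower.

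The lists of DNA replication, mitosis, oxidative phosphorylation, ribosomal proteins and cholesterol synthesis had 0 calls by limma. Of 44 DNA replication genes, 4 were higher and 5 lower at an unadjusted p under 0.05 (median 0.03), and of 41 genes of mitosis and G2/M 4 and 1 (median 0.11). Of 50 oxidative phosphorylation genes, 1 was higher and 6 lower (median -0.11), and of 45 cytosolic ribosomal proteins 0 and 1 (median -0.05). Of 18 genes of cholesterol synthesis and uptake, 1 was higher and 4 lower (median -0.21). Of 29 genes of glycolysis and hypoxia BNIP3L was called, and 0 were higher and 3 lower (median -0.01). BNIP3L was also the call among 19 apoptosis regulators, and TUBA1A that among 34 genes of integrins, adhesion and the cytoskeleton. In all, 11 of the 38 lists held a called gene and 27 did not. Lymphoid, erythroid and megakaryocyte, and epithelial and fibroblast markers had 0 calls of 13, 7 and 7, with 0, 0 and 1 at an unadjusted p under 0.05. Median centring raised the median of all genes by 0.13, to 0.07, and the medians of oxidative phosphorylation (0.02) and ribosomal proteins (0.08) then lay above 0, so no direction is given for those lists.

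**Figure D3:**
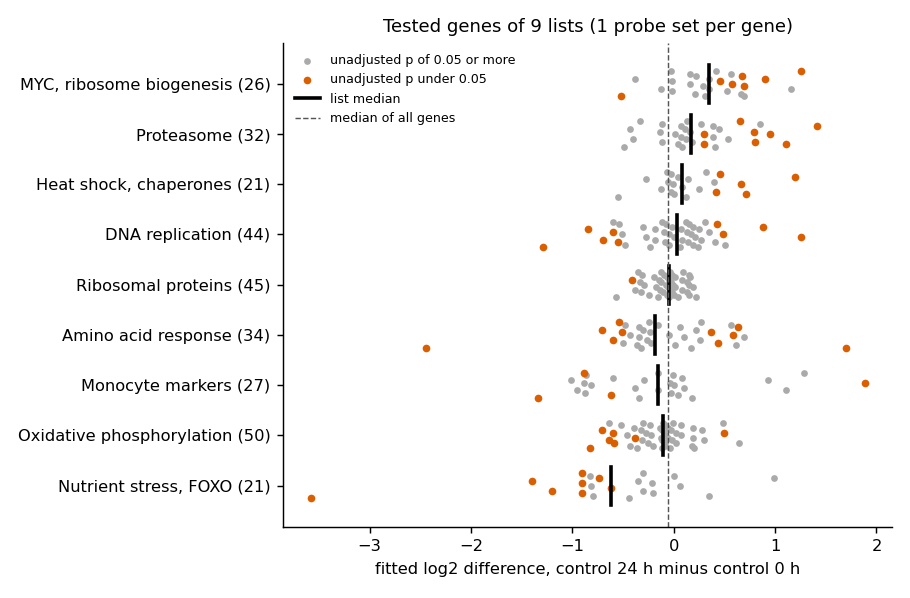
Fitted log2 differences of 24 h minus 0 h (x axis) for the tested genes of 9 lists, with their number in brackets; orange points have an unadjusted p under 0.05, black bars are list medians and the dashed line is the median of all genes at -0.06. The nutrient stress list has its median at -0.62 and the MYC and ribosome biogenesis list at 0.35.

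The later control arrays show where the called genes went next. From 24 to 48 h, 0 of 7824 probe sets were called by limma and 271 had an unadjusted p under 0.05. From 48 to 72 h, 3 were called (0.0383%): both probe sets of DDIT3, which rose, and 1 of CYP2A13, a cytochrome P450, which fell. The CYP2A13 probe set carries a suffix, and whether it also detects further transcripts was not examined, so this gene is uncertain. The times of 48 and 72 h share no array with 0 and 24 h. Of the 39 probe sets called from 0 to 24 h, 36 had the opposite sign from 48 to 72 h, against 55.7% of all tested probe sets. The 3 exceptions were POLR3D, ARMC6 and EXT1. At an unadjusted p under 0.05, 24 of the 39 had the opposite direction and 0 the same, while 6.34% of all tested probe sets passed in either direction. The median difference of the 39 from 48 to 72 h was log2 0.54 toward the level of 0 h.

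Single genes show how far this went. TSC22D3 read 745 and 303 at 48 h and 1268 and 1764 at 72 h, where its arrays span those of 0 h. DDIT3 was under the floor on both arrays of 48 h and read 1627 and 1078 at 72 h, above both arrays of 0 h (log2 3.29 from 48 to 72 h, adjusted p = 0.00579). TXNIP read 3786 and 4964 at 48 h and 6580 and 6322 at 72 h. Its level at 72 h lay between those of 24 h and 0 h, and so did that of BNIP3L, with 2329 and 2667. PSMD11 read 4939 and 4803 at 48 h and 3321 and 3455 at 72 h. SRM read 17075 and 16671 at 48 h and 12630 and 13612 at 72 h. CTSA read 1723 and 1971 at 48 h and 971 and 1212 at 72 h, still above both arrays of 0 h. For EXT1 both arrays of 72 h were under the floor, as at 24 h, and POLR3D read 2272 and 2320 already at 48 h, against 2682 and 2622 at 0 h. Other than DDIT3, no member of the 39 passed the adjusted threshold between 48 and 72 h.

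**Figure D4:**
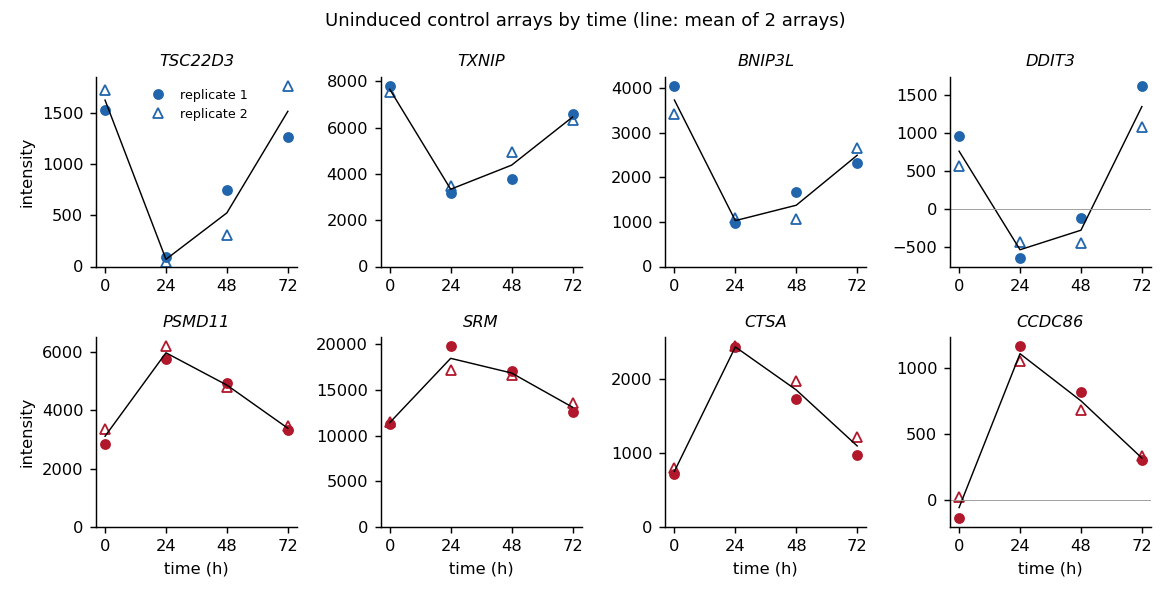
Intensity (y axis, linear) of 8 called genes on each uninduced array at 0, 24, 48 and 72 h (x axis); filled circles are replicate 1, open triangles replicate 2, and the line joins the means of 2 arrays. The means of TSC22D3, TXNIP and BNIP3L are lowest at 24 h, and those of PSMD11, SRM, CTSA and CCDC86 are highest at 24 h. DDIT3 is under the floor at both 24 and 48 h, which are thus not ranked.

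**Figure D5:**
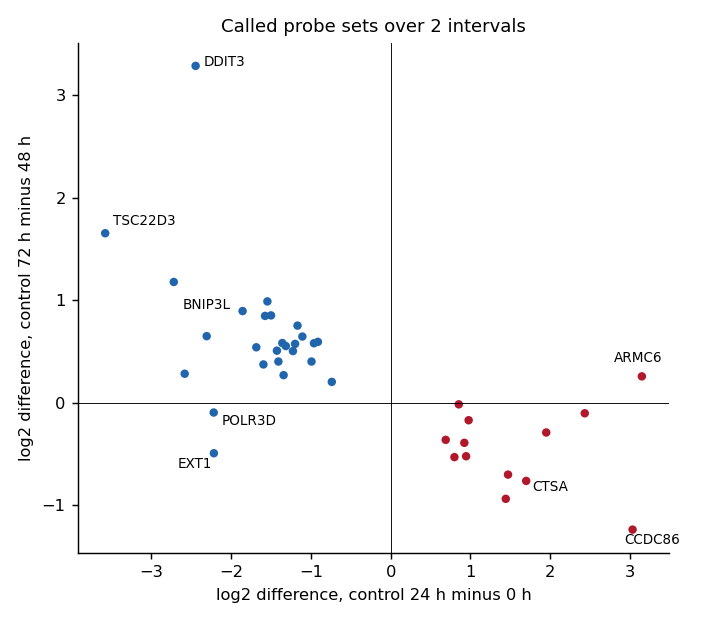
Log2 difference of 24 h minus 0 h (x axis) against that of 72 h minus 48 h (y axis) for the 39 called probe sets of uninduced cells. The 2 intervals share no array, and 36 points lie at the upper left or the lower right of the crossed zero lines.

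Induced cells at 12 and 24 h read as follows on the same probe sets, beside the arrays of 0 h that both comparisons share. RUNX1T1 was under the floor on both induced arrays of 12 h, and at 24 h of induction it read 1592 on replicate 1 and -47.5 on replicate 2, so those arrays disagree. TSC22D3 read 129.8 and 64.3 at 12 h of induction and 277 and 193.8 at 24 h, against 1526 and 1725 in uninduced cells at 0 h. BNIP3L read 872 and 821 at 12 h and 1617 and 1042 at 24 h, and DDIT3 was under the floor on all 4 of these arrays. PSMD11 read 7025 and 7340 at 12 h and 6512 and 7084 at 24 h, all above its uninduced arrays of 0 h. SRM read 20633 and 20498 at 12 h and 16619 and 15319 at 24 h. Several called genes differed in this respect. EXT1 was under the floor on both induced arrays of 12 h and read 560 and 395 at 24 h, below its uninduced values of 0 h. WSB1 read 2768 and 2702 at 12 h and 5969 and 5336 at 24 h, against 8603 and 5954 in uninduced cells at 0 h. TP53BP1 read 542.6 and 1818 at 12 h and 751.8 and 1010 at 24 h, against 1275 and 1481 at 0 h. These genes are examples, and the remaining called genes are not listed.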

How the data were processed

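The deposited values are linear array intensities per probe set of Affymetrix U95Av2 arrays, hybridised with biotin-labelled cRNA from TRIzol-extracted total RNA, per the labels. A scale factor is recorded for each array, per the labels, while the program that summarised the probes is not given in the sources. Genes were named from the platform annotation table, which can be old: 10961 probe sets had 1 symbol, 546 several and 1119 none.

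Values under the 40th percentile of all values (135.6) were set to it before log2. Testing required 2 or more of the 16 arrays above the median of all values (292.7), which left out 4735 probe sets. The lmFit and eBayes functions of limma 3.58.1 (R 4.3.3), with a mean-variance trend, were applied to 16 arrays with 8 group means, and 8 residual degrees of freedom remained. Tests were two-sided, with Benjamini-Hochberg adjustment over all 7824 probe sets and a threshold of 0.05. The fit was also run on simulated data, with an outcome not given here. Only probe sets well above the floor were changed in it, so it does not cover differences bounded by the floor. The number of arrays limits the precision.

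Named genes were, 1 probe set per gene, up to 15 rises and 15 falls, largest first, taken from called probe sets with groups that did not overlap, which gave 12 and 15, with up to 4 genes of smallest p and all called genes of a list, and RUNX1T1. The comparison, the 38 gene lists and the motifs were chosen with earlier results of these data known. Alternatives were other floors, a generalised logarithm, filters, scalings, array sets, variance models, the replicate number as a block and leaving out each array. Control probe sets were left out.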

Additional observations from a re-analysis of the deposited data

How the results depend on the processing

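The 39 calls of 24 h against 0 h became 25 with no filter on low values, 15 with no trend in the variance, 1 with the 8 control arrays alone and 0 with the 4 arrays alone, where the fit has 4 and 2 residual degrees of freedom in place of 8. All other settings with every array kept gave 31 to 54 calls, and leaving out 1 control array gave 10 to 85. No called probe set turned its sign in the 17 settings run for single probe sets, where it was tested. With groups that did not overlap, only the settings of quantile normalization and median centring could have turned a sign. TSC22D3, CCDC86, CTSA, ALDH3B1 and both SAT1 probe sets passed under 15 of 17 settings, while TP53BP1 passed under 4 and NIPSNAP1 under 6. From 24 to 48 h the 0 calls became 1 with the floor at the 50th percentile, 5 with no filter and 2 with no trend, and 0 to 1 with an array left out. From 48 to 72 h the 3 calls became 6 with that floor, 0 with a generalised logarithm, 10 with no filter, 1 with a filter of 8 arrays, 0 with the 8 control arrays and 7 with no trend, and 0 to 5 with an array left out. Beyond the numbers of arrays and genes entering, the causes were not tested. The count of 36 opposite signs stayed between 35 and 38. The labels do not say whether replicate numbers pair the samples, and correlations of deviations cannot settle it. Deviations of same-numbered arrays correlated at 0.12 for 0 and 24 h. Over the 28 pairs of groups they ranged from -0.15 to 0.25, with 7 over 0.1. With the replicate number as a block 37 were called, and 5 of the 39 were not, at adjusted p-values of up to 0.0559. Among 38 list medians, 11 changed sign with median centring and 5 with quantile normalization; those of nutrient stress, proteasome and MYC lists did not. The 2 arrays a group and values near background limit what could be detected for dim genes.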
